A study of Chlamydomonas reinhardtii with 16 samples.

Results

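The early and the late dark period of a day were compared in the unicellular green alga *Chlamydomonas reinhardtii*, in 8 of the 16 libraries of a diel RNA-seq series. The early group held the 4 libraries of zeitgeber time (ZT, hours after lamps on) 15 and 18, and the late group held the 4 libraries of ZT 21 and ZT 0. All 8 were taken with the lamps off, since ZT 0 was sampled just before lights on. The members were therefore chosen by sampling time and not by any measured value. The cultures were of strain dw15.1, split from a single starting culture and grown on acetate medium under lamps for 12 hr and in the dark for 12 hr, for 48 hr before sampling. No sample carried another allele or received a treatment. Sampling ran from ZT 0 to ZT 21, so by this order the ZT 0 cultures were taken at the end of the night before that of the other dark time points. ZT 0 is placed here after ZT 21 by its time of day, steps to ZT 0 compare separate nights, and for ZT 0 the time of day and the age of the culture cannot be told apart. Each time point had 2 libraries, A and B, from separate cultures, so that a p-value reflects the spread between 2 cultures of one strain.

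In day-night cycles the cells of this alga grow in the light and replicate DNA and divide around the onset of night. A mother cell divides several times in succession without growing in between, the daughters stay together for a while, and they then build new flagella, hatch and await the light. Acetate in the medium can feed the cells in the dark. Nuclear genes for chlorophyll-binding proteins and the carbon-fixing enzymes of this alga are known to be rhythmic, and many rise before dawn.

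Expression was given as FPKM, the fragments of a gene corrected for the length of its transcript and for the depth of the library, scaled so that every library had the same 75th percentile over all gene models. Differences were taken on log2(FPKM + 1), late minus early, which understates the change of weakly expressed genes. A gene was called at an adjusted p under 0.05 in limma, with Benjamini-Hochberg adjustment over the 11996 genes whose mean reached 1 FPKM. Adjusted p-values below are from that fit. The early libraries held 11451900 to 21871300 fragments and the late ones 13523800 to 19648600. Of the genes tested, 99.4% had at least 10 fragments in each of the 8 libraries, so few of the values below are limited by depth. In RNA from whole cultures, fewer cells of a type and less RNA per cell cannot be told apart, and neither can a change in the total RNA of a cell.

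The transcriptome moved on within the constant dark. Late in the night 4852 genes (40.4% of those tested) were called higher and 4037 (33.7%) lower, 74.1% together. Most differences were small: 87.5% of the called genes differed by less than 2-fold, and the median absolute log2 difference was 0.29. At least 2-fold differences were more often falls, with 351 genes (2.93%) higher and 758 (6.32%) lower. All 4 late libraries lay above all 4 early ones for 2572 genes (21.4%) and below them for 2314 (19.3%). The balance of rises and falls hung on the scaling. Of the calls, 54.6% were higher late, against 43.4% with the FPKM as deposited (4040 higher, 5270 lower). With no term for time point, 2090 genes were called higher and 1927 lower.

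The number of genes called and the size of the differences grew from step to step. The last step compares cultures of separate nights, so it is no measure of the pace within a single night. At 3-hr steps, 1241 genes (10.3%) were called higher and 1191 (9.93%) lower at ZT 18 than at ZT 15. From ZT 18 to ZT 21 these counts were 3253 (27.1%) and 2570 (21.4%), and from ZT 21 to ZT 0 they were 4034 (33.6%) and 4361 (36.4%). The median absolute log2 difference of a step was 0.12, then 0.21, then 0.35. Neighboring steps share the libraries of the time point between them, so these counts are set side by side without a test. The counts of the first step were 578 and 549 without library A of ZT 18, and 720 and 669 without its library B. ZT 0 also carried the largest changes of the main comparison: leaving it out left 211 genes at least 2-fold higher and 338 lower, and leaving out ZT 21 gave 802 and 1370.

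**Figure D1:**
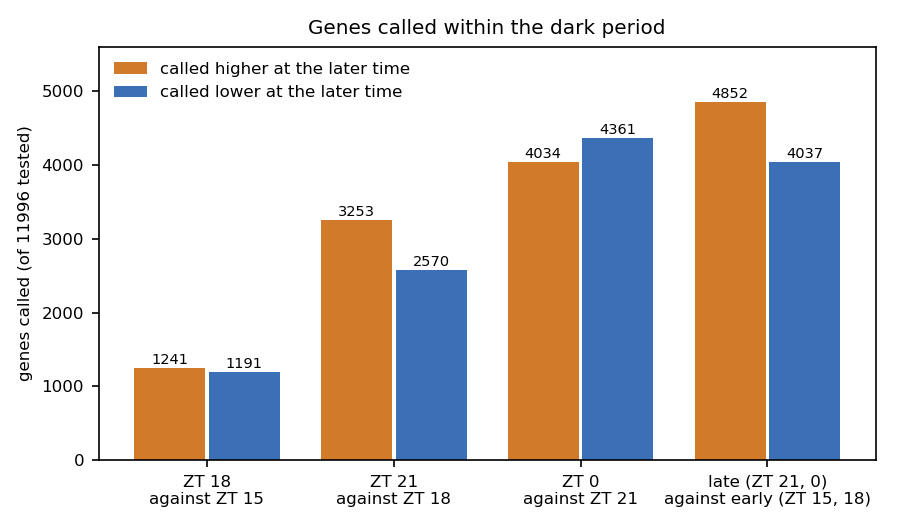
Number of genes called at each 3-hr step of the dark and in the comparison of the late with the early dark period (y axis, of 11996 tested), orange for genes higher and blue for genes lower at the later time. The counts rise from 1241 and 1191 at the first step to 4034 and 4361 at the last.

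Of the genes called higher late, 3283 (67.7%) had their highest mean at ZT 0 and 1564 (32.2%) at ZT 21, and of those called lower late, 3175 (78.6%) had their lowest at ZT 0 and 850 (21.1%) at ZT 21. That these fall in the late group follows from the call. Some 970 of the genes called higher fell again between ZT 21 and ZT 0, and 456 of those called lower rose. Of the 351 genes at least 2-fold higher, 260 rose at both the step to ZT 21 and the step to ZT 0, 68 at the first alone and 23 at the last alone. Of the 758 at least 2-fold lower, 590 fell at both steps, 40 at the first alone and 124 at the last alone. Some 4 fell at neither. Among the 3107 genes not called, 324 rose to ZT 21 and fell to ZT 0, and 297 did the reverse, so that the mean of the late group hid a change.

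The extremes of both directions were loci without a gene name in the sources used here. Cre03.g183300 (chromosome 3, 4248697-4251294, genome version 4.3) rose most, from 0.403 and 0.422 FPKM at ZT 15 through 1.87 and 1.31 at ZT 18 and 13.1 and 16.4 at ZT 21 to 80.2 and 87.1 at ZT 0 (log2 difference 4.26, SE 0.08, adjusted p = 3.3e-11). Cre01.g064850 (chromosome 1, 8888773-8893350) stood at 0.325 and 0.556 FPKM at ZT 15, 3.52 and 2.96 at ZT 18, 43.0 and 57.7 at ZT 21 and 35.6 and 34.8 at ZT 0 (log2 difference 4.12, SE 0.09). It had thus reached its highest level by ZT 21. Cre17.g708750 (chromosome 17, 1704624-1708453) fell most, from 224 to 297 FPKM in the 4 early libraries to 89.9 and 60.4 at ZT 21 and 18.6 and 17.3 at ZT 0 (log2 difference -2.86, SE 0.11). Cre09.g410475 (chromosome 9, 3729462-3731910) held at 51.9 to 56.3 FPKM early, stood at 33.2 and 31.1 at ZT 21 and dropped to 0.930 and 0.793 at ZT 0 (log2 difference -2.81, SE 0.05). Its neighbor Cre09.g410450 (chromosome 9, 3726855-3729413), with a Myb DNA-binding domain as found in transcription factors, went from 15.9 to 20.1 FPKM early to 11.6 and 9.90 at ZT 21 and 0.251 and 0.159 at ZT 0 (log2 difference -2.36, SE 0.06). The first 4 loci were chosen as the extremes of all genes. Without ZT 0 the difference of Cre09.g410475 was -0.73 and that of Cre09.g410450 was -0.72. Most of their fall thus lay between ZT 21 and ZT 0, while Cre17.g708750 kept -1.87.

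Gene families were taken from the protein domains named in the study's gene trees, and functional lists from its Gene Ontology (GO) gene lists. The study formed those GO lists by the phase of their genes in these same libraries, all 16 of them, so their direction and the time of their peak are described here and are no independent evidence of either. Of 52 domain families with at least 5 members tested, 32 had a median difference above 0 and 20 below it, from -0.55 to 0.53, against a median of 0.04 over all genes tested. Counts of members higher or lower late are to be read beside the 40.4% and 33.7% of all genes tested. Without ZT 0, 3570 of all 11810 genes tested were called higher and 3321 lower. With no term for time point these counts were 2090 and 1927 of 11996.

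**Figure D2:**
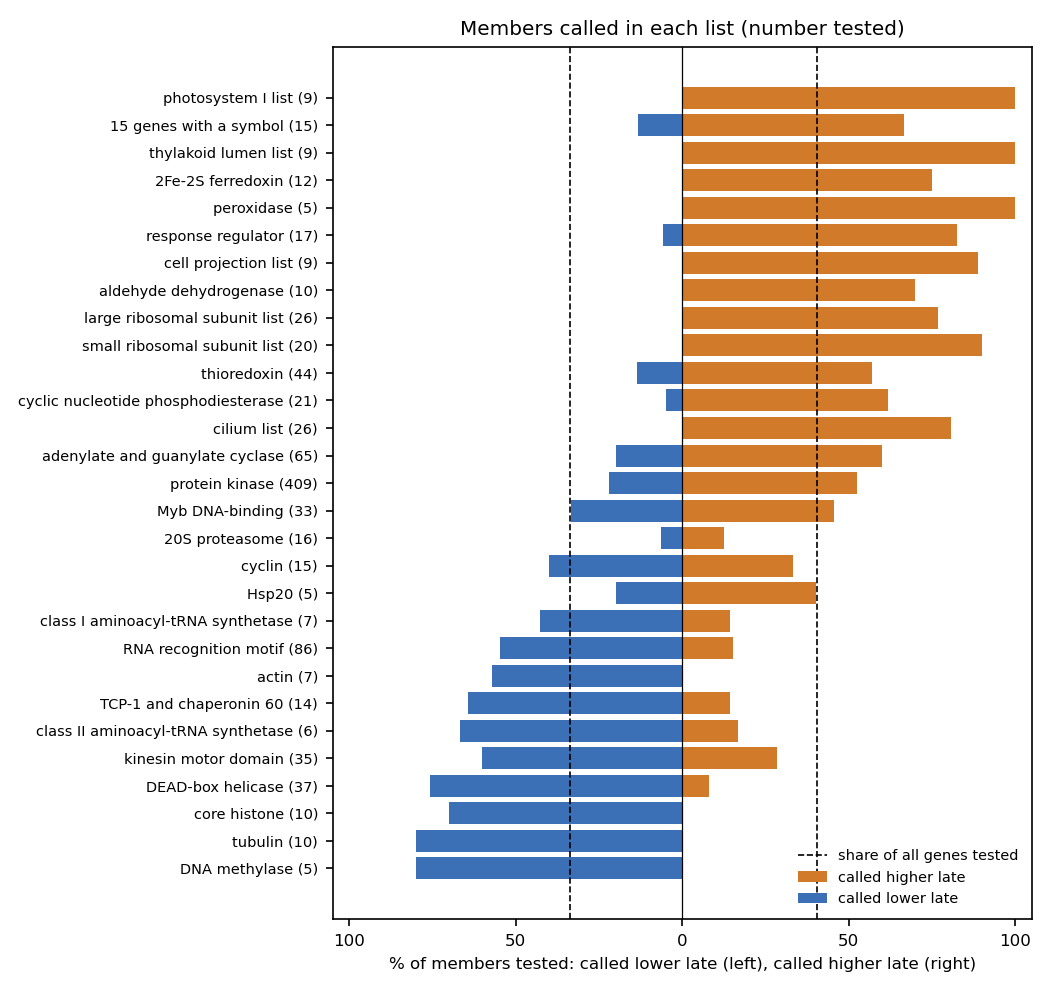
Percent of the members tested (number in brackets) that were called lower late (blue, left) or higher late (orange, right), for the lists described in the text with at least 5 members tested, ordered by their median difference. Dashed lines mark the shares of all genes tested, 33.7% lower and 40.4% higher. Tubulin/FtsZ-domain genes, core histones and DEAD-box helicases lie mostly to the left, photosystem I and thylakoid lumen lists to the right. The photosystem I, thylakoid lumen, cilium, cell projection and ribosomal subunit lists were formed by phase in these same libraries, so their direction is a description.

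Many genes of families with parts in cell division were lower late. Tubulin/FtsZ-domain genes, which encode the subunits of microtubules and of the bacterial-type rings that divide plastids, were lower late in 8 of 10 members tested and higher in none (median log2 difference -0.53). The 2 that fell most, Cre02.g118600 and Cre15.g646150, stand in the study's tree beside the FtsZ genes of *Arabidopsis thaliana*, which act in chloroplast division. Cre02.g118600 went from 31.5 and 40.6 FPKM at ZT 15 and 33.7 and 37.7 at ZT 18 to 12.3 and 8.52 at ZT 21 and 2.41 and 2.37 at ZT 0 (log2 difference -2.57, SE 0.10, adjusted p = 3.4e-09). Cre15.g646150 followed the same course at a lower level, from 15.6 to 19.7 FPKM early to 5.48 and 3.57 at ZT 21 and 0.976 and 1.14 at ZT 0 (log2 difference -2.44, SE 0.10). Neither was called at the step from ZT 15 to ZT 18, and both fell at each of the later steps. Cre06.g299300, of the same family, fell once, from 8.19 to 10.4 FPKM early to 3.70 and 2.91 at ZT 21, and stayed at 3.25 in both libraries of ZT 0 (log2 difference -1.24, SE 0.08). The study names 2 of the family as beta-tubulins. TUB2 went from 427 to 496 FPKM early to 387 and 389 at ZT 21 and 181 and 192 at ZT 0 (log2 difference -0.74, SE 0.06), and without ZT 0 its difference was -0.21. TUB1 stood at 804 to 916 FPKM early, 914 and 944 at ZT 21 and 676 and 697 at ZT 0 and was not called (log2 difference -0.08, adjusted p = 0.25). It was called lower, at -0.30, when ZT 21 was left out, and at -0.19 with the FPKM as deposited. Reads with more than 1 match were not used in the mapping, so values of near-identical copies such as the tubulins and histones are uncertain.

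Both tested genes for the small chain of ribonucleotide reductase, the enzyme that makes deoxynucleotides, were lower late. Cre12.g491050 stood at 51.8 and 66.4 FPKM at ZT 15, 59.3 and 65.1 at ZT 18, 22.5 and 16.3 at ZT 21 and 6.03 and 5.87 at ZT 0 (log2 difference -2.37, SE 0.10, adjusted p = 4.2e-09). The other, Cre12.g509400, fell later and less, from 14.0 to 15.8 FPKM early to 12.1 and 11.5 at ZT 21 and 5.45 and 5.69 at ZT 0 (log2 difference -0.76, SE 0.05). Both tested members of DNA polymerase family B, whose eukaryotic members copy the chromosomes, were lower: Cre01.g015250 went from 4.72 to 5.63 FPKM early to 2.08 and 1.54 at ZT 21 and then held at 1.45 and 1.497. Cre04.g214350 went from 1.83 to 2.56 FPKM early to 0.812 and 0.525 and then to 0.257 and 0.236. Their log2 differences were -1.23 and -1.13 (SE 0.08 each), and Cre04.g214350 did not pass the filter on low values when ZT 15 was left out. Of 129 core histone models 10 passed the filter on low values, of which 7 were lower and none higher. Cre13.g567700 was by far the most highly expressed of those named, at 281 to 358 FPKM early, 141 and 114 at ZT 21 and 45.3 and 41.5 at ZT 0 (log2 difference -2.12, SE 0.08). Cre03.g193900, Cre16.g661450 and Cre02.g104800 gave -1.87, -1.59 and -1.47. DNA methylase domains, of enzymes that put methyl groups on DNA, were lower in 4 of 5 members tested (Cre10.g461750 -1.13, Cre12.g484600 -0.58, Cre06.g249350 -0.55 and Cre03.g202150 -0.46 on the log2 scale). Their median step was -0.06 from ZT 18 to ZT 21 and -0.45 from ZT 21 to ZT 0, and without ZT 0 the count lower was 2.

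**Figure D3:**
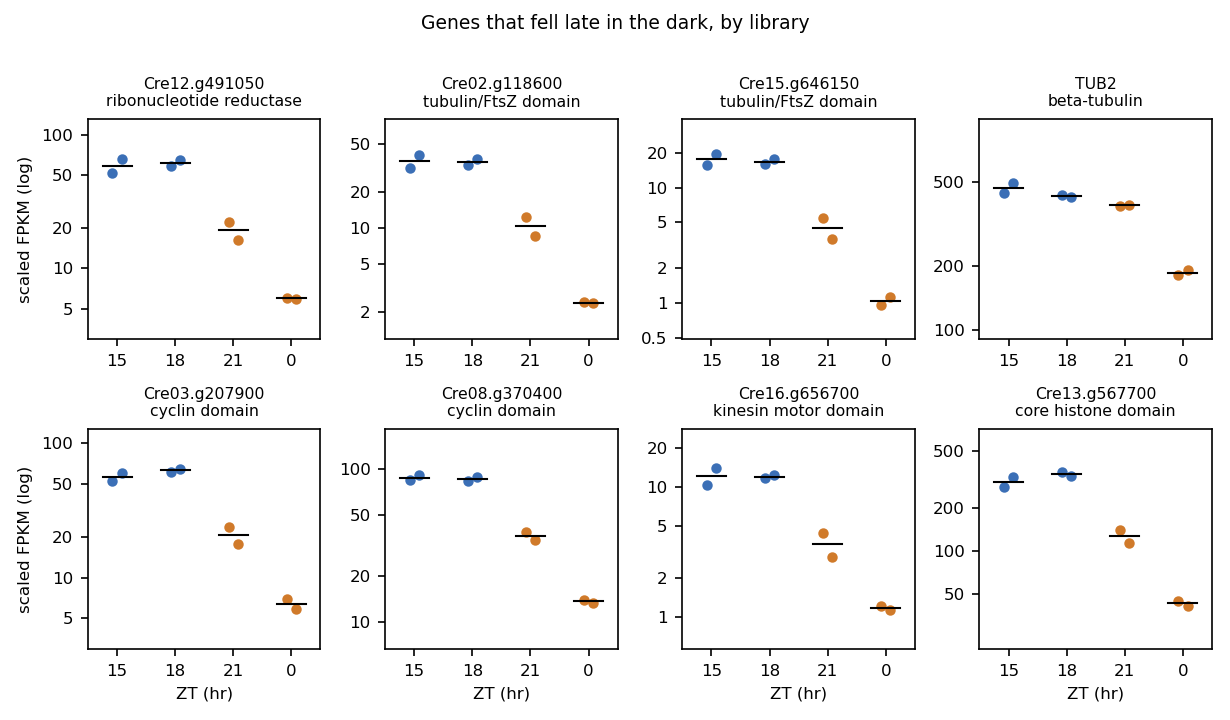
Scaled FPKM (log axis, a separate scale in each panel) of 8 genes that fell, at ZT 15, 18, 21 and 0; points are libraries A and B (blue early, orange late) and the black line is their mean. In 7 of the panels the step down lies between ZT 18 and ZT 21 and a further one between ZT 21 and ZT 0, while TUB2 falls mainly between ZT 21 and ZT 0.

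Cyclin-domain genes, which include the regulatory partners of cyclin-dependent kinases, were higher in 5 and lower in 6 of 15 tested (33.3% and 40%, against 40.4% and 33.7% of all genes), near the shares over all genes. The count lower was 3 without library B of ZT 18, 3 without library B of ZT 21 and 3 without ZT 18, and the count higher was 3 without ZT 15. Cre03.g207900 fell from 52.3 to 64.3 FPKM early to 23.9 and 17.7 at ZT 21 and 6.89 and 5.87 at ZT 0 (log2 difference -2.26, SE 0.09, adjusted p = 2.6e-09). Cre08.g370400 fell from 83.0 to 91.2 FPKM early to 38.7 and 34.3 and then 14.0 and 13.4 (log2 difference -1.90, SE 0.06). Cre17.g711550 went the other way, from 3.02 and 2.81 FPKM at ZT 15 and 4.01 and 5.45 at ZT 18 to 9.08 and 7.85 at ZT 21 and 12.2 and 12.8 at ZT 0 (log2 difference 1.26, SE 0.08). Cre04.g221300 was highest at ZT 21, at 4.14 and 3.78 FPKM, against 0.801 and 0.807 at ZT 15 (log2 difference 0.82, SE 0.05). These 4 were named for the size of their difference.

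Kinesins are motor proteins that walk along microtubules in the spindle or in the flagellum. Of 35 tested, 21 were lower (60%, against 33.7% of all genes) and 10 higher (28.6%, against 40.4%). The falls were the larger: 9 members were at least 2-fold lower and none was 2-fold higher, the highest reaching 0.35 on the log2 scale. Of the 10 that were higher, 8 peaked at ZT 21, against 32.2% of all genes called higher. The count higher was 6 without ZT 18, 4 without ZT 21, 7 with the FPKM as deposited and 3 with no term for time point. Cre16.g656700 stood at 10.3 and 14.0 FPKM at ZT 15, 11.7 and 12.3 at ZT 18, 4.40 and 2.89 at ZT 21 and 1.22 and 1.14 at ZT 0 (log2 difference -2.04, SE 0.11, adjusted p = 1.7e-08). Cre01.g065200, Cre05.g233100 and Cre10.g456350 gave -2.02, -1.93 and -1.85, each in steps at ZT 21 and at ZT 0. All 3 myosin motor domain genes were lower. Cre13.g563800 fell most, from 4.04 to 4.96 FPKM early to 2.28 and 1.67 at ZT 21 and 0.443 and 0.489 at ZT 0 (log2 difference -1.40, SE 0.08). Cre09.g416250 and Cre16.g658650 changed less (-0.62 and -0.48). Actin-domain genes moved little, with a lowest difference of -0.29 for Cre13.g603700. Of 7 tested, 4 were lower (57.1%, against 33.7% of all genes) and none higher. The count lower was 2 without ZT 18, 2 without ZT 21 and 6 without ZT 0, and 0 with no term for time point.

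In some of these genes the gap between early and late held without ZT 0, but smaller, and in others most of it was lost. Without ZT 0, Cre12.g491050 differed by -1.61, Cre02.g118600 by -1.71, Cre15.g646150 by -1.74, Cre03.g207900 by -1.49, Cre08.g370400 by -1.22, Cre13.g567700 by -1.36 and Cre16.g656700 by -1.51 on the log2 scale. These 7 were among the larger falls of these families, and their values are the differences of ZT 21 alone from ZT 15 and ZT 18. TUB2 was left with -0.21 and Cre12.g509400 with -0.28, and the DNA methylases Cre12.g484600 (-0.13) and Cre06.g249350 (-0.14) lost their calls. Of the tubulin-domain genes 7 were then lower and 1 was higher.

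RNA recognition motif genes, whose products bind RNA in splicing, transport and translation, were lower late in 47 of 86 tested (54.7%, against 33.7% of all genes) and higher in 13. At the step from ZT 18 to ZT 21, 21 of the 86 were lower, against 21.4% of all genes, and from ZT 21 to ZT 0 it was 42, against 36.4%. Without ZT 0 the count lower was 25, where 3321 of all 11810 genes tested were lower. With no term for time point it was 12, against 1927 of 11996 genes. Both counts are near the shares over all genes. Cre06.g275100 was at 137 and 113 FPKM at ZT 15, 97.9 in both libraries of ZT 18, 80.1 and 77.3 at ZT 21 and 9.73 and 10.3 at ZT 0 (log2 difference -1.91, SE 0.06, adjusted p = 1e-09). Cre08.g368500 held between 19.9 and 25.6 FPKM in the 6 libraries of ZT 15, ZT 18 and ZT 21 and then dropped to 1.86 and 1.28 (log2 difference -1.67, SE 0.08). Cre01.g052200 did the same, from 7.92 to 11.5 FPKM down to 1.13 and 1.29 (-1.31). Without ZT 0 the differences of these 3 genes were -0.48, -0.15 and -0.29. Cre04.g219950 was the exception, with 4.46 to 6.95 FPKM at ZT 15 to ZT 21 and 31.2 and 25.9 at ZT 0 (log2 difference 1.35, SE 0.07), and 0.37 without ZT 0.

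DEAD-box helicases, which unwind RNA in ribosome assembly and splicing, were lower late in 28 of 37 tested and higher in 3 (median log2 difference -0.40). The count lower was 16 without ZT 0, and 14 with no term for time point. Cre12.g539100 stood at 11.1 to 14.6 FPKM in the 6 libraries before ZT 0 and at 0.899 and 1.01 at ZT 0 (log2 difference -1.43, SE 0.07, adjusted p = 1.2e-08). Cre02.g118300 stood at 12.3 to 16.5 FPKM and then at 0.718 and 1.42 (-1.40, SE 0.10), and Cre12.g540200 at 4.55 to 7.31 and then at 0.358 and 0.478 (-1.24, SE 0.08). Without ZT 0 these 3 genes gave -0.10, 0.08 and -0.20, none of them called. Cre16.g647600, which carries an SNF2 helicase domain as well, fell earlier, from 2.50 to 3.59 FPKM to 1.44 and 0.859 at ZT 21 and 0.545 and 0.658 at ZT 0 (-1.11, SE 0.08).

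Aminoacyl-tRNA synthetases, which load tRNAs with amino acids, were mostly lower at ZT 0. Of 7 class I members 6 were lower at ZT 0 than at ZT 21, and of 6 class II members all 6 were, against 36.4% of all genes at that step (median log2 differences of that step -0.63 and -0.65). Against the early night 3 and 4 were called lower, and 1 of each class was higher. Without ZT 0 the counts lower were 0 and 1, and those higher 2 and 3. The class I count lower was 5 without ZT 15 and 6 without ZT 21, and the class II count higher was 0 without either of these and 2 without ZT 18. Cre03.g160500 was between 21.4 and 26.4 FPKM up to ZT 21 and at 5.81 and 5.74 at ZT 0 (log2 difference -1.02, SE 0.07, adjusted p = 1.2e-07). Cre16.g651750 was between 4.65 and 5.82 FPKM and then at 1.21 and 1.40 (-0.79, SE 0.07). Without ZT 0 they gave -0.09 each. Cre06.g279150, called higher at 0.19, was at its highest at ZT 21, with 12.1 and 12.9 FPKM, and back at 7.58 and 8.48 at ZT 0. It gave -0.05 without ZT 15, -0.10 without ZT 21 and 0.48 without ZT 0. TCP-1 and chaperonin 60 genes, whose products fold proteins in closed barrels (tubulin and actin among them in the cytosol), were lower in 9 of 14 tested and higher in 2. Their falls were shallow, with a lowest difference of -0.48 for Cre03.g156750. Of the 14, 4 were lower at each of the last 2 steps (median steps -0.10 and -0.07). Over all genes 21.4% and 36.4% were lower at these steps. Cre17.g720000 rose, from 0.480 to 0.705 FPKM early to 1.06 and 1.33 at ZT 21 and 2.96 and 3.29 at ZT 0 (log2 difference 0.90, SE 0.06). With ZT 0 left out it did not pass the filter on low values.

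**Figure D4:**
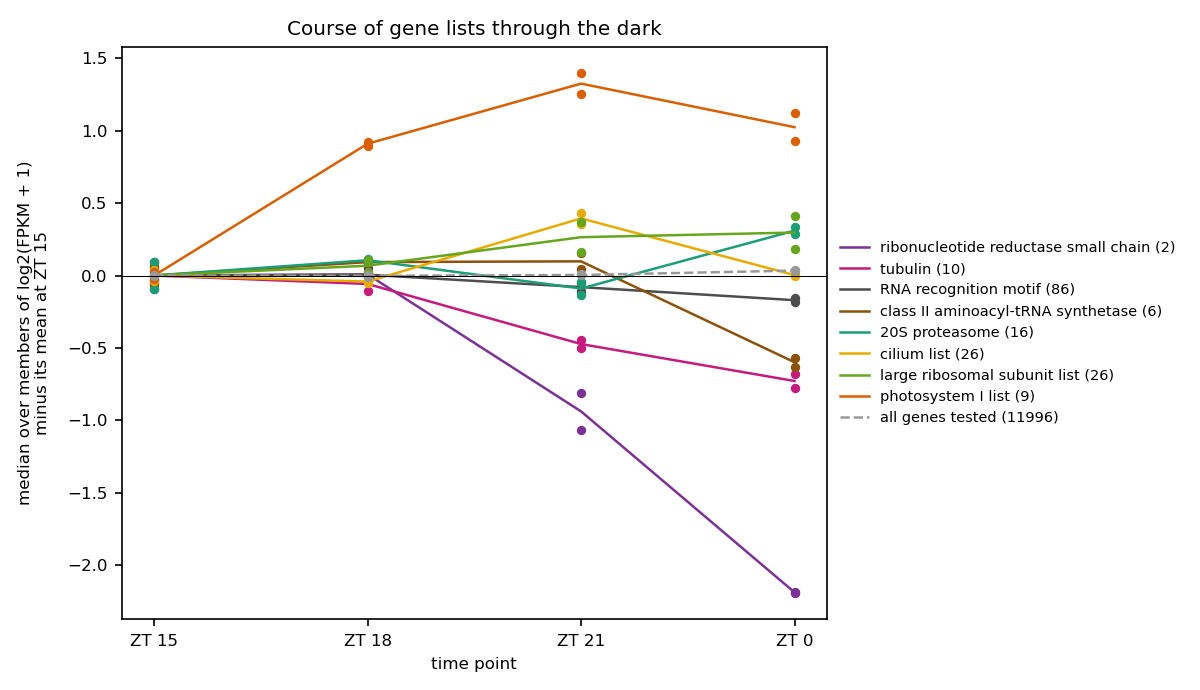
Median over the members of 8 gene lists, and over all 11996 genes tested, of log2(FPKM + 1) minus each gene's mean at ZT 15 (y axis), at the 4 time points of the dark; points are single libraries, lines their means, and the number of genes is in brackets. Ribonucleotide reductase and the tubulin/FtsZ-domain family (labeled tubulin) are lower from ZT 21 on, and class II tRNA synthetases at ZT 0 only. Members of the tubulin/FtsZ-domain family differ, and the beta-tubulin TUB1 was not called. Among these time points the cilium list is raised at ZT 21 only and the 20S proteasome is highest at ZT 0. The photosystem I list, which includes the light-harvesting gene LHCII, is raised from ZT 18 on.

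Genes of the photosystem I and thylakoid lumen lists were higher late, and most of their rise came up to ZT 21. Both lists were formed by phase in these same libraries, so their shared direction is given as a description. All 9 genes of the photosystem I list and all 9 of the thylakoid lumen list were higher late and none was lower (median log2 differences 0.71 and 0.63). All 9 of the former had risen by ZT 18. From ZT 21 to ZT 0, 1 of them was higher and 2 were lower, and of the lumen list 2 were higher and 2 lower. Photosystem I passes electrons from plastocyanin to ferredoxin, and the lumen is the space inside the thylakoid where plastocyanin and parts of photosystem II lie. Cre32.g781300 of the photosystem I list went from 163 and 144 FPKM at ZT 15 to 380 and 362 at ZT 18, 513 and 601 at ZT 21 and 529 and 599 at ZT 0 (log2 difference 1.23, SE 0.07, adjusted p = 4.2e-08). Cre06.g285250 and Cre17.g720250 gave 0.93 and 0.78. LHCII, the light-harvesting gene described below, is in this list too, so the list is not one of photosystem I core subunits alone. Of the lumen list, Cre02.g082500 was highest at ZT 21, at 281 and 325 FPKM against 80.7 and 75.3 at ZT 15, 198 and 186 at ZT 18 and 183 and 208 at ZT 0 (log2 difference 0.98, SE 0.07). Cre02.g132800 gave 0.90 and Cre06.g273700 gave 0.76. Since these genes rose early, ZT 15 carried much of the difference. Without it Cre32.g781300 gave 0.59, Cre06.g285250 0.33, Cre17.g720250 0.34, Cre02.g082500 0.34 and Cre02.g132800 0.36. Of the 9 genes of the photosystem I list 5 were then called, and of the 9 of the lumen list 8.

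The 15 rhythmic genes that the study collected from earlier work, the only ones for which it pairs a locus with a symbol, held 10 that were higher late, 2 lower and 3 not called. PRK1, phosphoribulokinase of the Calvin-Benson cycle, rose at every step, from 23.8 and 22.6 FPKM at ZT 15 to 47.0 and 48.0, 81.0 and 81.4, and 112 and 116 at ZT 0 (log2 difference 1.51, SE 0.05, adjusted p = 7.6e-10). FBA1, listed by the study as a chloroplast fructose-bisphosphate aldolase, stayed at 3.91 to 5.35 FPKM early. It rose to 8.93 and 10.7 at ZT 21 and 28.7 and 31.2 at ZT 0 (log2 difference 1.67, SE 0.07). It gave 0.91 without ZT 0, so that much of its rise lay between ZT 21 and ZT 0.

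The aldolase genes did not move alike. FBA3, by far the highest of them, went from 178 to 232 FPKM early to 306 and 310 at ZT 21 and 660 in both libraries of ZT 0 (log2 difference 1.13, SE 0.05), and gave 0.58 without ZT 0. FBA2 had reached its level by ZT 21, with 4.22 to 6.90 FPKM early, 10.9 and 11.5 at ZT 21 and 10.5 in both libraries of ZT 0 (0.87, SE 0.05). FBA4 was weak, at 1.12 to 1.30 FPKM early and 0.844 to 1.34 late, and its groups overlapped (log2 difference -0.09, SE 0.08, adjusted p = 0.30).

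The light-harvesting gene LHCII, a chlorophyll-binding protein, made its largest step by ZT 18, from 31.9 and 30.9 FPKM to 72.8 and 69.7, and stood at 110 and 96.4 at ZT 21 and 139 and 114 at ZT 0 (log2 difference 1.25, SE 0.07, adjusted p = 3e-08). FNR1, ferredoxin NADP reductase at the end of photosynthetic electron transport, rose from 43.1 and 39.8 to 78.5 and 79.3, 117 and 119, and 124 and 129 FPKM (1.08, SE 0.05). Without ZT 15 LHCII gave 0.67 and FNR1 0.62. CAH1, a carbonic anhydrase, was low throughout and highest at ZT 21, with 0.464 and 0.537 FPKM at ZT 15, 1.02 and 0.790 at ZT 18, 3.70 and 4.36 at ZT 21 and 2.13 and 2.50 at ZT 0 (1.27, SE 0.07). CAH1 came down again between ZT 21 and ZT 0, while LHCII and FNR1 did not.

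TufA, an elongation factor Tu, gave 0.67 and CYC4, a cytochrome c, 0.26, which was no longer called without ZT 15 (0.14). The cytosolic thioredoxin h1 was called at the threshold, at 0.15 (adjusted p = 0.049), with overlapping groups of 95.6 to 126 FPKM early and 107 to 132 late. It lost its call with the replicate block (adjusted p = 0.055), a common median scaling (0.063), no filter (0.069) or no term for time point (0.33). It also lost it, at these log2 differences, without ZT 15 (0.01), without ZT 0 (0.09), with the FPKM as deposited (0.04) and without any of 5 single libraries (A or B of ZT 15 and B of ZT 18, ZT 21 and ZT 0, 0.10 to 0.17). HSP70B, a chaperone of the 70-kd heat shock family, was level up to ZT 21, at 58.7 to 79.2 FPKM, and dropped to 39.3 and 36.9 at ZT 0 (log2 difference -0.33, SE 0.06), with 0.16 when ZT 0 was left out. The locus that the study lists as ATP2/ARF1 stood at 220 to 272 FPKM early, 216 in both libraries of ZT 21 and 292 and 280 at ZT 0 (log2 difference 0.01, adjusted p = 0.87). It was called lower (-0.19) without ZT 0 and higher (0.21) without ZT 21.

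**Figure D5:**
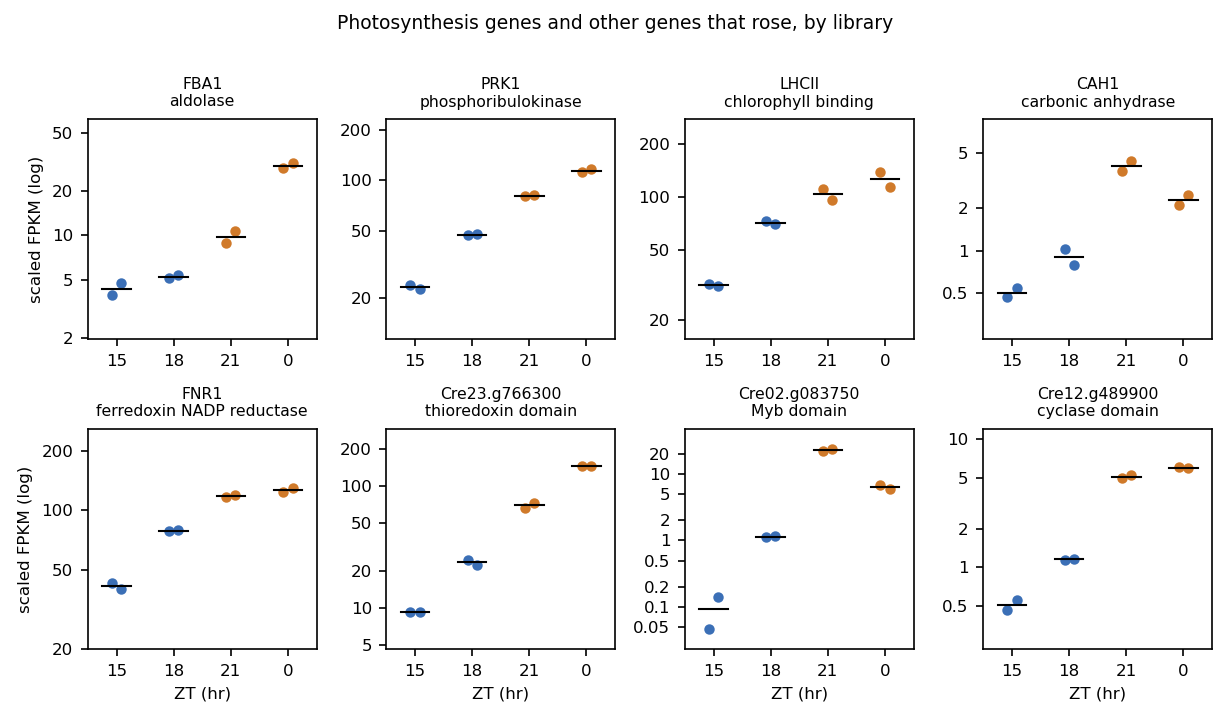
Scaled FPKM (log axis, a separate scale in each panel) of 8 genes that rose, at ZT 15, 18, 21 and 0; points are libraries A and B (blue early, orange late) and the black line is their mean. PRK1 and the thioredoxin-domain gene climb at every step, FBA1 mostly at the last (28.7 and 31.2 FPKM at ZT 0), and CAH1 and the Myb-domain gene are highest at ZT 21.

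Of 12 genes tested with a 2Fe-2S ferredoxin domain, small iron-sulfur proteins that carry electrons, 9 were higher late and none lower (median log2 difference 0.53). The share higher was 75%, against 40.4% of all genes. Cre12.g487900 rose from 1.84 and 2.07 FPKM at ZT 15 to 2.79 and 2.65, 4.33 and 5.43, and 11.9 and 12.6 at ZT 0 (log2 difference 1.41, SE 0.07, adjusted p = 9.1e-09). Cre18.g744450 came up between ZT 21 and ZT 0 only, from 0.331 to 0.728 FPKM to 4.15 and 3.96 (1.03, SE 0.05). With ZT 0 left out it did not pass the filter on low values, so its call rests on ZT 0. Cre07.g334800 was instead highest at ZT 21, with 45.9 and 48.0 FPKM, against 12.5 and 10.6 at ZT 15, 30.3 and 28.3 at ZT 18 and 20.02 and 21.4 at ZT 0. Its difference of 0.73 was 0.09 without ZT 15 and 0.16 without ZT 21, no longer called, since its ZT 0 libraries lay below those of ZT 18. The family's count higher was 6 without ZT 15, and 2 members were called lower without ZT 21.

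Thioredoxin-domain proteins reduce disulfides and switch on Calvin-Benson enzymes in the light. Of 44 such genes tested, 25 were higher and 6 lower (56.8% and 13.6%, against 40.4% and 33.7% of all genes). With the FPKM as deposited 22 were higher and 13 lower. Cre23.g766300 rose at every step, from 9.24 and 9.36 FPKM at ZT 15 to 24.7 and 22.8 at ZT 18, 66.4 and 73.4 at ZT 21 and 146 and 147 at ZT 0 (log2 difference 2.68, SE 0.05, adjusted p = 3.3e-11). Cre12.g496700 rose from 5.88 and 6.93 through 12.1 and 11.4 and 25.0 and 28.9 to 56.4 and 57.7 FPKM (2.05, SE 0.06). Cre03.g202950, which also has the calcium-binding EF-hand domain, rose from 2.41 and 2.53 through 5.27 and 5.26 and 10.6 and 11.1 to 20.3 and 20.4 FPKM (1.77, SE 0.05). In these 3 genes both libraries of each time point lay above both of the one before. Peroxidase-domain genes, which break down peroxides, were higher in all 5 tested, led by Cre05.g233900 at 1.44 (5.32 and 6.02 FPKM at ZT 15, 26.4 and 29.2 at ZT 0). Without ZT 0 only 2 were higher and 1 was called lower, and without ZT 18, 3 were higher. With ZT 0 left out Cre01.g045700 did not pass the filter on low values. Cre01.g045700 was among those that depended on the time points taken: it fell from 1.28 and 1.24 FPKM at ZT 15 to 0.215 and 0.301 at ZT 21 before it rose to 3.16 and 2.67 at ZT 0 (log2 difference 0.28, and -0.03 without ZT 18).

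Aldehyde dehydrogenase genes, which oxidize aldehydes to acids, were higher in 7 of 10 tested and lower in none (median 0.27). Without ZT 0, 3 were higher and 2 lower. Cre12.g500150 was at 5.22 to 9.26 FPKM in the 6 libraries before ZT 0 and at 40.003 and 35.4 at ZT 0 (log2 difference 0.98, SE 0.06, adjusted p = 8.1e-08). Without ZT 0 it was called lower (-0.32). Cre20.g758200 was at 13.1 to 27.6 FPKM before ZT 0 and at 41.1 and 42.4 at ZT 0 (0.56, SE 0.10), with -0.04 without ZT 0 and 0.17 without ZT 18.

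Of 65 genes tested with an adenylate and guanylate cyclase domain, which makes cyclic nucleotides, 39 were higher and 13 lower (5 lower without ZT 0). These were 60% and 20%, against 40.4% and 33.7% of all genes. Of 21 with a cyclic nucleotide phosphodiesterase domain, which breaks them down, 13 were higher and 1 lower. The count lower was 6 without ZT 21 and 3 with the FPKM as deposited. Cre12.g489900, a cyclase, rose from 0.461 and 0.560 FPKM at ZT 15 to 1.15 and 1.16, 4.94 and 5.20, and 6.01 and 5.97 at ZT 0 (log2 difference 1.85, SE 0.05, adjusted p = 3.1e-10). Cre02.g114100, a phosphodiesterase, rose from 0.658 and 0.411 FPKM to 0.941 and 1.26, 2.80 and 2.99, and 4.68 and 4.69 (1.40, SE 0.07). Cyclic AMP is known in this alga for its part in flagellar adhesion and mating.

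Response regulators, the receiving part of bacterial-type phosphorelays, were higher in 14 of 17 tested and lower in 1, with Cre13.g572450 first at 1.63 (3.31 and 2.55 FPKM at ZT 15, 4.53 and 5.97 at ZT 18, 12.4 and 10.2 at ZT 21, 19.3 and 16.8 at ZT 0). With the FPKM as deposited 13 were higher and 3 lower.

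Protein kinases, enzymes that switch other proteins by adding phosphate, were higher in 214 of 409 tested (52.3%, against 40.4% of all genes) and lower in 90. With no term for time point 130 were higher and 44 lower. Those that changed most went in both directions. Cre03.g205950 rose from 1.12 and 1.18 FPKM at ZT 15 to 2.59 and 2.43, 8.27 and 8.65, and 28.5 and 26.0 at ZT 0 (log2 difference 2.57, SE 0.05, adjusted p = 4.4e-11). Cre06.g293300 rose from 0.570 and 0.478 FPKM to 1.12 in both libraries of ZT 18, 3.89 and 3.70, and 10.1 and 8.14 (1.95, SE 0.07). Cre08.g372550 fell from 64.4 to 79.9 FPKM early to 28.1 and 20.8 at ZT 21 and 6.96 and 6.30 at ZT 0 (-2.41, SE 0.09), and Cre07.g355250 from 10.7 to 15.0 to 4.20 and 3.24 and then to 0.955 and 0.830 (-2.16, SE 0.09). The 2 that fell were not called at the step to ZT 18 and were lower at both later steps. Without ZT 0 the 4 kinases gave 1.78, 1.41, -1.55 and -1.51.

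Genes with a Myb DNA-binding domain had 15 members higher and 11 lower of 33 tested (45.5% and 33.3%, against 40.4% and 33.7% of all genes), near the shares over all genes. The counts were 10 and 6 without ZT 0. Cre02.g083750 was close to nil at ZT 15, at 0.0471 and 0.144 FPKM, and passed through 1.12 and 1.16 at ZT 18 to 22.3 and 23.6 at ZT 21, before it came down to 6.78 and 5.95 at ZT 0 (log2 difference 3.12, SE 0.06, adjusted p = 3.2e-11). Cre12.g522400 and Cre06.g249050 fell, at -1.69 and -1.61, beside Cre09.g410450 above.

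Most genes of the cilium list were highest at ZT 21 among the dark time points. In the cilium list, of which part was cut off in the copy used here, 21 of 26 genes were higher late and none lower, with a median log2 difference of only 0.20. The list was formed by phase, and its course is given as a description. Of the 26, 25 had their highest mean of the dark at ZT 21. From ZT 18 to ZT 21, 25 rose (median step 0.44), and from ZT 21 to ZT 0, 18 fell (median step -0.39). The last step compares separate nights, so how long the rise lasted was not measured. Without ZT 0 all 26 were higher, and without ZT 21 it was 9 higher and 6 lower. With the FPKM as deposited 12 were higher, and with no term for time point 9. The cell projection list shares 7 genes with it and had 8 of 9 higher. Cre11.g476850 changed most, from 2.16 and 1.5 FPKM at ZT 15 and 3.18 and 2.77 at ZT 18 to 5.06 and 4.97 at ZT 21 and 4.44 and 4.10 at ZT 0 (log2 difference 0.75, SE 0.07, adjusted p = 3.1e-06). Cre09.g403800 did not come down, with 29.3 to 31.7 FPKM early, 40.7 and 42.7 at ZT 21 and 44.0 in both libraries of ZT 0 (0.48, SE 0.05). One kinesin, Cre02.g073750, is in these lists and was among the 10 kinesins that were higher.

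Cytosolic ribosomal protein genes, in lists formed by phase, rose by a small and even amount. Of the large-subunit list, also cut off in part, 20 of 26 were higher and none lower, and of the small-subunit list 18 of 20 (median log2 differences 0.26 and 0.22). All members of both lists lay between 0.12 and 0.40. The highest, Cre10.g459250, was at 3216 and 3219 FPKM at ZT 15, 4229 and 3673 at ZT 18, 4429 and 4857 at ZT 21 and 4557 and 5000 at ZT 0 (log2 difference 0.40, SE 0.07, adjusted p = 0.00035). Replicates of these genes differed together: against ZT 15, the median of the large-subunit list was 0.16 in library A and 0.37 in library B of ZT 21, and 0.18 and 0.41 in those of ZT 0. The counts were 10 and 6 with the FPKM as deposited, 9 and 3 with no term for time point, and 10 and 7 without ZT 15. The small-subunit count was also 11 without ZT 18, 12 without ZT 21, 8 without library B of ZT 0, and 11 each without library A of ZT 15, library B of ZT 18 or library B of ZT 21.

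The 20S proteasome, the core of the machine that degrades ubiquitin-tagged proteins, changed within the late group more than between the groups. Of its 16 genes 2 were higher late and 1 lower. From ZT 18 to ZT 21, 9 of them fell, against 21.4% of all genes. From ZT 21 to ZT 0, 14 rose, against 33.6% of all genes, and 15 had their highest mean at ZT 0. Without ZT 21 there were 11 higher, and without ZT 0 none higher and 4 lower. The 2 called higher turned with the time points. Cre10.g461950 had 20.8 to 26.7 FPKM early, 22.8 and 21.5 at ZT 21 and 34.2 and 33.1 at ZT 0 (log2 difference 0.18, and -0.11 without ZT 0), and Cre14.g610950 had 16.5 to 20.6, 16.8 and 15.8, and 26.3 and 25.3 (0.14, and -0.18 without ZT 0). The count of 2 was 0 without either library of ZT 0, library A of ZT 15, library A of ZT 18 or library A of ZT 21, 1 without library B of ZT 18 and 5 without library B of ZT 15.

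Small heat shock proteins of the Hsp20 family, which hold unfolded proteins in solution, contained a neighboring pair that appeared at ZT 0 alone. Cre07.g318800 (chromosome 7, 917046-918756) was at 0.373 to 0.737 FPKM in the 6 libraries before ZT 0 and at 32.6 and 22.7 at ZT 0 (log2 difference 2.19, SE 0.10, adjusted p = 6.8e-09). Cre07.g318850 (chromosome 7, 918848-920500) was at 0.0775 to 0.175 FPKM and then at 8.74 and 6.59 (1.49, SE 0.07). With ZT 0 left out neither passed the filter on low values. At ZT 3, in the light, Cre07.g318800 was back at 0.324 and 0.624 FPKM. Of the other 3 tested, Cre14.g617450 fell slightly, at -0.18, a call that was lost without library A of ZT 0 (-0.16), library A of ZT 18 (-0.14), ZT 0 (-0.06) or ZT 15 (-0.10).

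The light period offered libraries that the comparison had not used. Chosen after the dark values had been seen, ZT 3 was set against ZT 12, the first and the last sampling of the light period, with 5284 genes (44%) higher and 4291 (35.8%) lower at ZT 3. Of the genes called higher late in the dark, 73.4% were also higher at ZT 3 and 10.9% lower. Of those called lower late, 69.5% were lower at ZT 3 and 13.2% higher. Among the genes that differed at least 2-fold in the dark, 300 of 351 (85.5%) were higher at ZT 3 and 719 of 758 (94.9%) lower. All 10 tubulin-domain genes were lower at ZT 3 than at ZT 12. Of the 26 genes of the cilium list, 25 were higher at ZT 3, against 44% of all genes. The 20S proteasome went against its rise at ZT 0, with 15 of 16 genes lower at ZT 3 than at ZT 12.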

How the data were processed

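The authors sequenced stranded RNA libraries from cultures sampled every 3 hr over a day, aligned them to version 4.3 of the genome (TopHat, at most 1 hit per read), and deposited FPKM per gene from Cufflinks with its confidence limits. Whether counting used the strand is not given in the sources used here, so overlapping antisense models could not be told apart, and none of the 131 named models overlaps another. Replicates were run in separate lanes, and which library ran in which is not given, so a lane term could not be fitted.

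The FPKM of each library was scaled to a common 75th percentile over all 17114 models (factors 0.687 to 0.762 in the dark libraries). Genes with a mean of at least 1 over the 8 libraries were tested on log2(FPKM + 1) with limma 3.58.1 in R 4.3.3, with the 4 time points as a factor, a trended variance and the contrast of ZT 21 and ZT 0 with ZT 15 and ZT 18. This differs from a rhythm test over the whole day. Fragments per gene were recovered from the confidence limits (100% of values under 300 fragments came out whole within 0.05), which gave the depths and the run with voom. Replicate libraries of a time point had r of 0.994 to 0.997 and differed beyond counting error (chi-square per degree of freedom 3.39 to 7.5). Tested on simulated data for this comparison of 11996 genes, the fit recovered 94% of 100 genes changed by 0.5 and 99% of 100 changed by 1 on the log2 scale. Only these 200 genes were changed, drawn from the more highly expressed ones, with normally distributed noise. The recovery thus does not extend to the weakest genes tested or to data with as many changes as these.

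The members and the gene lists were chosen with earlier results of these data known. Domain families came from 196 gene trees, and names for 15 loci from a table of the study. The genes named are those 15, the up to 4 called members of each of 32 lists with the largest difference, and the 2 highest and 2 lowest of all genes. Lists by gene symbol could not be formed and no motif was searched, since the reference table gives no symbols and no sequences were used here. Alternatives were another scaling or none, another pseudocount, other filters, voom, all 16 libraries, a replicate block, no time point term, and leaving out each library or time point. The comparison of ZT 3 with ZT 12 and the count of genes set apart at one time point were added after the data had been seen. A deposited table of 50 genes, scaled by the authors, was used only to check the factors.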

Additional observations from a re-analysis of the deposited data

How the results depend on the processing

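The direction and call of the named genes held under most alternatives, but less so without ZT 0. Of the 126 named genes still tested without ZT 0, 104 kept both, 13 lost their call and 9 changed sign. Of 131 named genes, all kept theirs with all 16 libraries in the fit, 130 each with a replicate block, a pseudocount of 0.1, scaling to a common median or voom on the fragments, 125 with the FPKM as deposited and 88 with no term for time point, where 43 lost their call. With that term left out, 2090 genes were called higher late and 1927 lower, and the counts of most lists fell too, photosystem I from 9 to 5 and thioredoxins from 25 to 13. Genes with a mean of at least 5 (4913 of them) gave 2089 higher and 1693 lower, 214 and 364 at least 2-fold, 1104 and 907 not overlapping, 608 lower at the step to ZT 18, 1639 higher and 1058 lower at the step to ZT 21, and 1581 higher and 2109 lower at the step to ZT 0, since fewer genes were tested. Without a filter, 16743 genes were tested, with 5826 higher and 5054 lower. Genes at least 2-fold higher and lower numbered 600 and 1200 with a pseudocount of 0.1, 639 and 1272 with voom, 211 and 338 without ZT 0 and 802 and 1370 without ZT 21. At an adjusted p of 0.01 the step from ZT 15 to ZT 18 had 673 higher and 603 lower, and leaving out a library gave 578 to 1309 higher and 549 to 1233 lower, where a time point left with 1 library was assumed to vary like the others. Of the genes called in the main comparison, 252 were called the other way without ZT 0, 90 without ZT 21, 14 without ZT 15 and 1 without ZT 18, and none under the other alternatives run. Without ZT 0 the differences changed sign for Cre02.g118300 (0.0826), Cre06.g250100 (HSP70B, 0.16), Cre06.g293600 (0.0030), Cre10.g461950 (-0.11), Cre12.g500150 (-0.32), Cre12.g537100 (0.0454), Cre14.g610950 (-0.18), Cre17.g698000 (ATP2/ARF1, -0.19) and Cre20.g758200 (-0.0352). Cre06.g279150 gave -0.0515 without ZT 15 and -0.10 without ZT 21, and Cre01.g045700 gave -0.0290 without ZT 18. The cause of these changes was not tested beyond the courses given above. Differences between libraries A and B correlated at -0.27 to 0.31 between time points, with the 0.31 between ZT 21 and ZT 0. The cause of that correlation was not tested. The replicate block gave 4818 genes higher and 4019 lower, with 4792 and 3986 of the calls kept. The deposited FPKM, not scaled, moved the median difference from 0.04 to -0.04 and called 4040 genes higher and 5270 lower. With 2 libraries per time point no sample could be screened as an outlier, and weakly expressed genes are limited by depth, 3 fragments being worth 0.0195 to 0.0366 FPKM in a gene of median length.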

Other observations

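ZT 0, at the end of the dark, and ZT 3, the first of the light, held most of the genes that stood apart at one time point. Over 12153 genes, both libraries lay at least 2-fold above all 4 libraries of the neighboring time points for 215 genes at ZT 0 and 395 at ZT 3, against 0 to 63 at the other 6 time points, and at least 2-fold below for 326 and 200, against 0 to 122. ZT 15, ZT 18 and ZT 21 had 5, 0 and 13 above and 1, 0 and 0 below. This count was chosen after the data had been seen and has no test.

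The genes that follow were picked for their values at ZT 0. Cre01.g056250 (chromosome 1, 7806992-7808781) went from 3.40 and 5.53 FPKM at ZT 21 to 126 and 120 at ZT 0 and back to 11.7 and 10.3 at ZT 3. Cre02.g131600 (chromosome 2, 7467551-7468730) went from 4.59 and 5.10 to 91.8 and 77.5 and then to 0.946 and 0.456. At other times of the day, the mean of Cre01.g056250 was 100.9 FPKM at ZT 6 and 52.6 at ZT 9, and that of Cre02.g131600 was 21.4 at ZT 9 and 21.2 at ZT 15. In the other direction, Cre03.g183900 (chromosome 3, 4308316-4310676) went from 27.8 and 27.3 FPKM at ZT 21 to 1.22 and 1.45 at ZT 0 and back to 27.6 and 27.3 at ZT 3. Cre01.g061400 (chromosome 1, 8483492-8487747) went from 19.3 and 16.4 to 1.06 and 1.19 and then to 22.5 and 23.9. Of the domain families, RNA recognition motif genes had 5 members set apart below at ZT 0 and 1 above (of 86). Over all 12153 genes these counts were 326 and 215. The Hsp20 family had 2 above (of 5). In the dark libraries the Hsp20 pair described above passed the filter on low values only through ZT 0, so this count is no result about the family. No source used here gives these loci a name.

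By the order of sampling ZT 0 preceded ZT 3 directly and came from the night before ZT 21. A second dawn was not analysed here, so whether such short changes return was not tested.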
